A study of Homo sapiens with 2 samples.

Results

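The 10 genes described here are Notch pathway members: the receptors NOTCH1, NOTCH2 and NOTCH3, the ligands JAG1 and JAG2, the DNA-binding factor RBPJ, and the targets HES1, HEY1, HEYL and NRARP. They were taken by symbol from the 58735 genes of each deposited table, and all 10 were found. The study profiled RNA of BT549, a cell line from a triple-negative breast tumour that has mesenchymal features. A control group carried a scrambled hairpin and the other, here shSIK2, a hairpin that targets the salt-inducible kinase SIK2, with 1 library each. Both groups had 2 h of Wnt3a, a secreted Wnt ligand, so no library shows the pathway without Wnt3a. Whether the hairpin cells were a clone or a pool, and how many hairpins were used, was not stated in the labels. The question is which transcripts differ when the hairpin targets SIK2 in Wnt3a-treated cells.

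Notch signalling passes between touching cells. A ligand of the Jagged or Delta family on 1 cell pulls on a Notch receptor of its neighbour, the receptor is cut by an ADAM protease and then by gamma-secretase, and the freed intracellular domain enters the nucleus. There it binds RBPJ and a Mastermind co-activator and switches on genes such as HES1 and HEY1, which encode repressors. In breast tissue the pathway is known for its part in progenitor cell fate, and JAG1 and the receptors are often studied in triple-negative tumours.

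RBPJ recognises the letters TGGGAA, and the sequence upstream of HES1 is shown because that gene is the textbook RBPJ target among the members. Letters are from RefSeq on GRCh38.p14, read 5′ to 3′ on the strand of the gene, with each TGGGAA or its reverse complement TTCCCA in capitals. The HES1 stretch (chr3:194135898-194136144, + strand) ends just before the start of the gene in the annotation and is intergenic. The HEYL stretches (chr1:39639804-39639833 and chr1:39639725-39639754, - strand) lie upstream of the RefSeq start, and GENCODE release 29 places them in the 5′ UTR of its longer first exon.
HES1: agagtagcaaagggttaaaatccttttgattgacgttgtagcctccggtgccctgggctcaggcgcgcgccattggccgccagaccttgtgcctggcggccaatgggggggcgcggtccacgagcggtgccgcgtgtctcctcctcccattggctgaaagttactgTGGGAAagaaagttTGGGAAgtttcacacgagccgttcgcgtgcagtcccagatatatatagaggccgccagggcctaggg
HEYL, distal: ccgcctagggccTTCCCAcggctcggcggc
HEYL, proximal: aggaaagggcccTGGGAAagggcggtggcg

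The first HES1 match starts 84 bases before the RefSeq start and the second 70 bases before it, 14 bases apart on the same strand. The HEYL matches begin 178 and 99 bases before its start and face opposite ways. Of all 35116 promoter windows in the RefSeq table, 20.8% hold the motif on either strand in the 250 bases before the start, and 2.90% hold at least 2 matches. Of the members, 9 had a window. HES1 and HEYL held 2 matches each, and RBPJ held a pair in 1 of its 5 windows. NOTCH1, NOTCH2, NOTCH3, JAG1, JAG2 and NRARP held none there. A match is a description of letters and shows no binding. HEY1 was not analysed here for its promoter.

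FPKM divides the reads of a gene by its length and by a read total. Multiplied by exon length, the deposited values gave whole reads, 18019225 with the scrambled hairpin and 16347399 with the SIK2 hairpin. The same step (58.3) held in both tables, so both libraries were divided by the same total. Folds and log2 ratios as deposited, and the shares of genes past 2-fold, are thus not corrected for the lower read total of the shSIK2 library. A fold below is a ratio of those reads as deposited, with an exact 95% interval for counting error. A log2 ratio is of FPKM plus 0.1, shSIK2 over scrambled, which understates the ratio of low genes. A gene was measured when its higher library reached 1 FPKM, which 12866 genes did. With 1 library per group there is no replicate spread, no test and no p-value. SIK2, the hairpin's target, stood at 7.80 FPKM with the scrambled hairpin and 3.56 with the SIK2 hairpin, 2.19-fold lower (1.99 to 2.42). Mesenchymal markers were present (7 of 7 measured, VIM at 260.3 and 283.3 FPKM). They did not share a direction (4 higher, 3 lower), and summed to 655 FPKM with the scrambled hairpin and 861 with the SIK2 hairpin. SPARC, at 38.1 and 188.6 FPKM, differed most. EPCAM and PGR were at 0, and no leukocyte or endothelial marker (of 6 each) was measured. Luminal and epithelial markers had 2 of 8 measured, and their summed level was 7.46 FPKM with the scrambled hairpin and 26.9 with the SIK2 hairpin. KRT18, at 2.14 and 19.3 FPKM, made up most of that difference, while CDH1 had 11 and 2 reads and ESR1 6 and 0. Their part in the results was not tested.

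NOTCH2 was the lowest member relative to the scrambled library and JAG1 the highest. Of 9 measured members, JAG1 and JAG2 passed 2-fold upwards in the shSIK2 library, NOTCH2 and HEY1 passed it downwards, and 5 lay between. Among all measured genes 11.0% were at least 2-fold higher and 8.28% at least 2-fold lower. With 9 genes these counts describe the members and nothing more. The median log2 ratio was -0.09 over the measured members and -0.11 over all measured genes. With both libraries scaled to equal totals, which adds 0.14 to a log2 ratio and less for low genes because of the 0.1, NOTCH3 joined the higher members (3 higher, 2 lower), against 13.4% and 6.04% of all measured genes. With the trend in GC content and length removed, JAG2 dropped out and NRARP joined the lower members (1 higher, 3 lower), against 9.17% and 8.52%. These cells were sequenced in bulk, so fewer cells with a transcript and less of it per cell cannot be told apart.

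**Figure D1:**
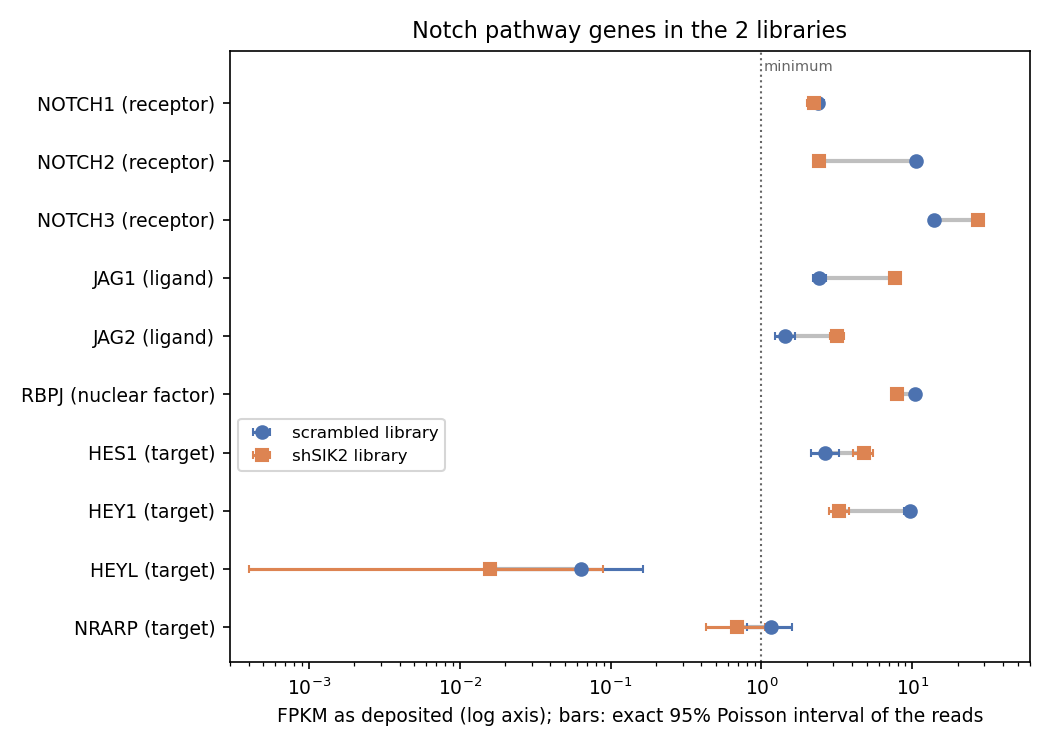
Deposited FPKM (log axis) of the 10 Notch members in the scrambled library (circles) and the shSIK2 library (squares), with exact 95% Poisson intervals of the reads. NOTCH2 and HEY1 are lower in the shSIK2 library, NOTCH3, JAG1, JAG2 and HES1 are higher, RBPJ is lower by less, and the intervals of NOTCH1, NRARP and HEYL overlap.

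The receptors differed in direction. NOTCH2 (ENSG00000134250, GRCh38 chromosome 1, 119911553 to 120069626) stood at 10.6 FPKM with the scrambled hairpin and 2.41 with the SIK2 hairpin, from 3059 and 695 reads. That is 4.40-fold lower (4.05 to 4.79), and 240 of all measured genes (1.87%) had a log2 ratio at least as low as its -2.09. NOTCH3 (ENSG00000074181, chromosome 19, 15159038 to 15200981), a receptor best known from vascular smooth muscle, stood at 13.8 FPKM against 27.3. Its 2229 and 4407 reads make it 1.98-fold higher (1.88 to 2.08), just short of the 2-fold line as deposited. NOTCH1 (ENSG00000148400, chromosome 9, 136494433 to 136545786), the receptor often mutated in T-cell leukaemia, had 423 reads against 397, at 2.38 and 2.23 FPKM. Its 1.07-fold lower level has an interval (0.927 to 1.22) that spans 1, and its log2 ratio turned from -0.09 as deposited to 0.05 at equal totals. NOTCH4 was below the minimum with 6 and 10 reads, scrambled first.

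Shares within a library do not depend on how the libraries are scaled, though the GC trend bears on comparing them between libraries. Of the summed FPKM of the 4 receptor genes, NOTCH3 made up 51.5% with the scrambled hairpin and 85.3% with the SIK2 hairpin. NOTCH2 made up 39.5% and 7.52%, and NOTCH1 8.85% and 6.96%. The ratio of NOTCH3 to NOTCH2 per length was 1.30 (1.23 to 1.38) with the scrambled hairpin and 11.3 (10.5 to 12.3) with the SIK2 hairpin, 8.70 times as large (7.90 to 9.59, counting error on a log scale). With the trend in GC content and length removed it was 5.51 times as large. NOTCH2 was 4.46 times NOTCH1 (4.03 to 4.95) in the scrambled library. In the shSIK2 library that ratio was 1.08, with a counting interval (0.954 to 1.23) that includes 1. Levels of different genes also depend on the exon length taken for each, which such intervals do not cover. The summed receptor level itself was 26.8 FPKM and 32.0 FPKM. RNA of NOTCH3 thus held the largest share of the pool in both libraries, and a larger one with the SIK2 hairpin. The protein levels were not measured.

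**Figure D2:**
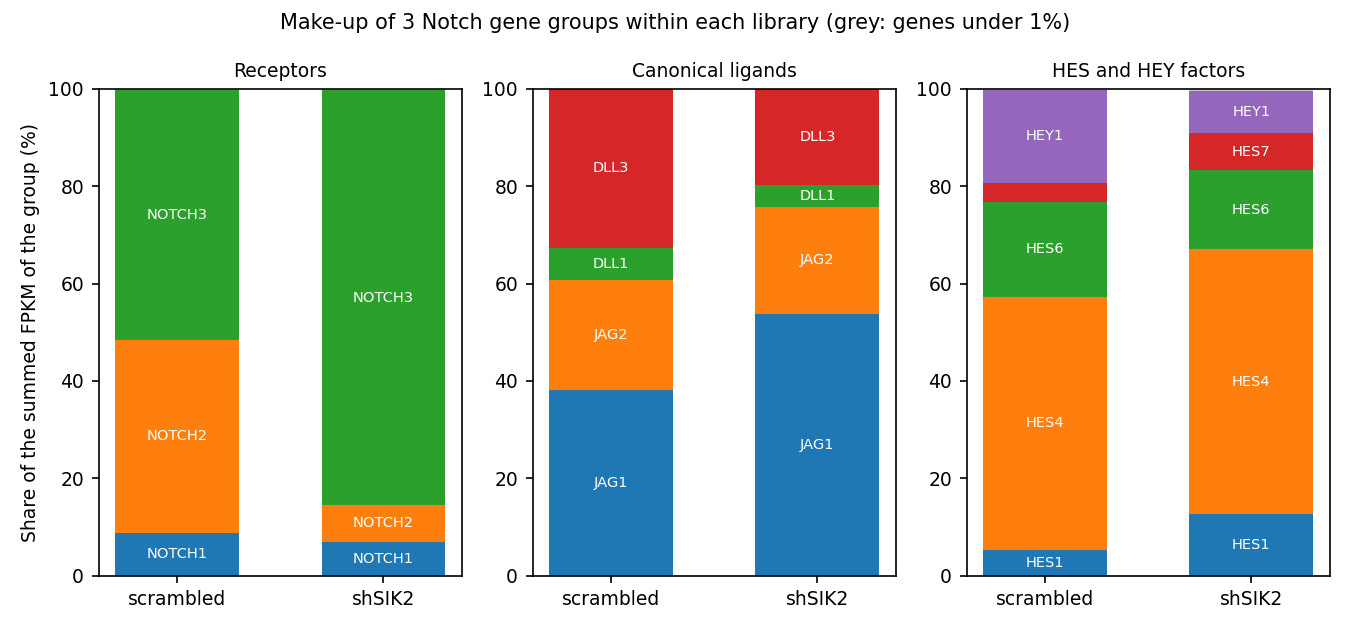
Share (%) of the summed FPKM of 4 receptors, 5 canonical ligands and 11 HES and HEY factors held by each gene in the scrambled and the shSIK2 library, with genes under 1% in grey. NOTCH3 takes 51.5% and 85.3% of the receptors, JAG1 38.1% and 53.9% of the ligands, and HEY1 19.3% and 8.72% of the factors.

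NOTCH2 shares sequence with other genes, which bears on its reads. Of the 50-base words in its transcripts, 23.4% also occur in transcripts of other genes, mostly NBPF19 (21.6%) and NOTCH2NLA (20.9%), a partial copy of NOTCH2 on chromosome 1. How reads divide between these genes is uncertain. NOTCH2NLA had 19 and 11 reads, and the 5 genes sharing at least 1% of the words had 730 and 478 reads together. Added to those of NOTCH2, the sum was 3789 and 1173 reads, 3.23-fold lower (3.02 to 3.45). The group was thus lower as a whole, however its reads divide. Most reads of the sum were assigned to NOTCH2, so it cannot show which gene differed. Reads on sequence found only in NOTCH2 were not counted apart. The other members shared 6.53% (JAG2, all of it with an overlapping transcript that had no reads), 0.803% (RBPJ, with pseudogenes at 0 reads), 0.36% (NOTCH3) or 0% of their words. In all, 8 annotated genes overlap 5 of the members, 3 of them antisense, and 0 of these had a read.

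Both Jagged ligands were higher in the shSIK2 library. JAG1 (ENSG00000101384, chromosome 20, 10637684 to 10673999), the ligand altered in Alagille syndrome, stood at 2.42 FPKM with the scrambled hairpin and 7.71 with the SIK2 hairpin. Its 386 and 1231 reads make it 3.19-fold higher (2.84 to 3.58), and 5.07% of all measured genes were at least as high. JAG2 (ENSG00000184916, chromosome 14, 105140981 to 105168824) stood at 1.44 and 3.15 FPKM, from 158 and 346 reads, 2.19-fold higher (1.81 to 2.66). JAG1 was 1.68 times JAG2 per length (1.39 to 2.04) in the scrambled library and 2.45 times (2.17 to 2.77) in the shSIK2 library. Among the Delta-like ligands, DLL3, which is known as an inhibitory family member, had 93 and 127 reads, 1.37-fold higher (1.04 to 1.80). DLL1 was below the minimum with 23 and 35 reads, and DLL4, the main endothelial ligand, had 0 in both. Together the canonical ligands summed to 6.34 FPKM and 14.3 FPKM.

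RBPJ (ENSG00000168214, chromosome 4, 26163455 to 26435131), through which all Notch receptors act on DNA, stood at 10.4 FPKM with the scrambled hairpin and 7.88 with the SIK2 hairpin. It had 1651 and 1251 reads, 1.32-fold lower (1.23 to 1.42). Its log2 ratio was -0.40, and 31.5% of all measured genes were at least as low.

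The targets did not share a direction. HEY1 (ENSG00000164683, chromosome 8, 79764010 to 79767863), a basic helix-loop-helix repressor, stood at 9.63 FPKM with the scrambled hairpin and 3.28 with the SIK2 hairpin. From 534 and 182 reads it was 2.93-fold lower (2.48 to 3.49), and 3.38% of all measured genes were at least as low. HES1 (ENSG00000114315, chromosome 3, 194136145 to 194138732), a repressor of the same class, stood at 2.66 and 4.75 FPKM. It had 94 and 168 reads and was 1.79-fold higher (1.38 to 2.33), short of 2-fold. The ratio of HES1 to HEY1 per length was 0.276 (0.219 to 0.344) with the scrambled hairpin and 1.45 (1.17 to 1.79) with the SIK2 hairpin, so the order of the pair turned over, a 5.24-fold shift (3.87 to 7.10). NRARP (ENSG00000198435, chromosome 9, 137300482 to 137302251), a feedback inhibitor that binds the Notch intracellular domain, had 35 and 21 reads at 1.15 and 0.691 FPKM. It was 1.67-fold lower, with an interval (0.944 to 3.01) that spans 1. HEYL (ENSG00000163909, chromosome 1, 39624153 to 39639945) was the 1 member below the minimum, with 4 reads and 1 read. Its ratio of 4.0-fold lower (0.396 to 197) was not distinguishable from equal levels at this depth.

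The order of levels within a library also differed. NOTCH3 had the highest FPKM of the members in both, above 73.2% of all measured genes with the scrambled hairpin and 89.1% with the SIK2 hairpin. In the scrambled library NOTCH2, RBPJ and HEY1 came next, with neighbours in that order whose intervals overlap. HES1, JAG1 and NOTCH1 followed with overlapping intervals, then JAG2 and NRARP, again overlapping, and HEYL last. In the shSIK2 library RBPJ and JAG1 came next with overlapping intervals, then HES1. HEY1 and JAG2 overlapped in the next places, followed by NOTCH2 and NOTCH1, which also overlapped, then NRARP and HEYL. Of the 10 places, 7 were held by a different member in the shSIK2 library.

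Log2 ratios in these libraries followed GC content (Spearman rho 0.34 across measured protein-coding genes, which are not independent), and the members differ in it. NOTCH3 (63.1% GC), NOTCH1 (63.7%) and JAG2 (64.1%) lie where the median gene was higher, at 0.36 for the first pair and 0.52 for JAG2. JAG1 (50.6%), HES1 (50.7%), HEY1 (49.3%) and NOTCH2 (47.8%) lie where the median was between -0.20 and -0.18. With the trend in GC content and length subtracted, NOTCH3 and JAG2 both stood at 0.51 on the log2 scale. JAG1 stood at 1.73, NOTCH2 at -1.95 and HEY1 at -1.44, still past 2-fold. HES1 stood at 0.88 and NOTCH1 at -0.51. NRARP, with 67.3% GC, stood at -1.30 and so passed 2-fold on that scale, from few reads.

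**Figure D3:**
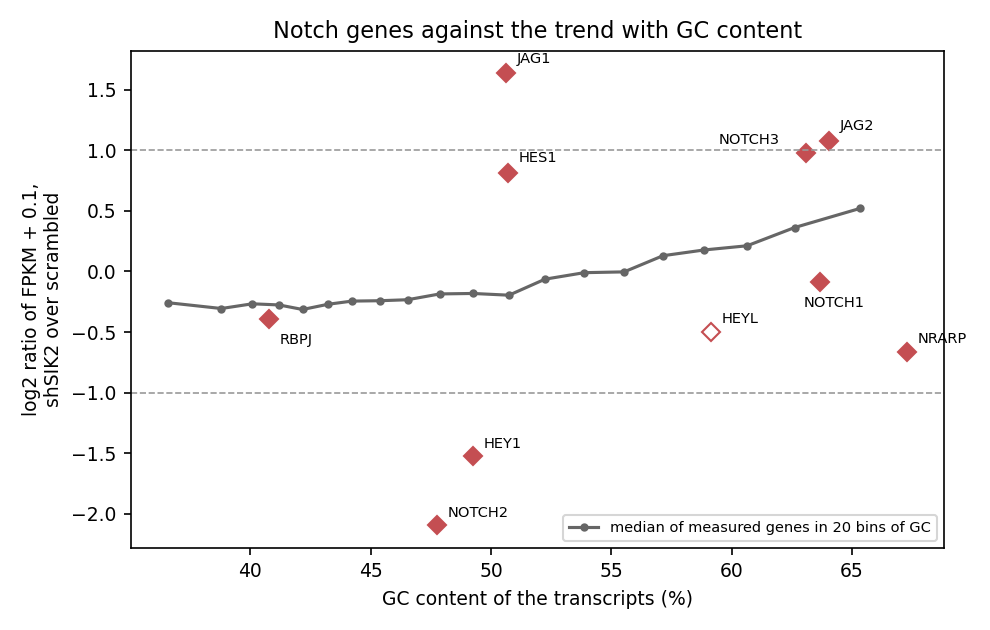
Log2 ratio of FPKM plus 0.1 (shSIK2 over scrambled) of each member against the GC content (%) of its transcripts, with the median of all measured genes in 20 bins of GC content as a line. JAG2, NOTCH3, NOTCH1 and NRARP lie at GC contents where the line is above 0, and NOTCH2, HEY1, JAG1 and HES1 where it is below. The open symbol is HEYL, below the minimum.

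Genes around each member were compared with it, since neighbouring genes can differ together. JAG2 stood at a log2 ratio of 1.08 among 22 measured genes within 1 Mb whose median was 0.77. Of these 10 were at least 2-fold higher, 0 were at least 2-fold lower, and 12 were below JAG2, so it did not stand apart from its surroundings. Among all measured genes 11.0% were at least 2-fold higher and 8.28% at least 2-fold lower. With the trend in GC content and length removed the neighbours of JAG2 had a median of 0.49, and JAG2 stood at 0.51. NOTCH3 (0.98) was above 20 of its 21 neighbours (median -0.20), the exception being the heat shock gene DNAJB1. HES1 (0.81) was above all 9 of its neighbours (median -0.43). HEY1 (-1.52) was below all 6 of its own (median -0.17), 2 of which were at least 2-fold higher. JAG1 (1.63) had 4 measured neighbours with a median of 0.36, and SNAP25, a synaptic vesicle fusion protein, was above it at 1.97.

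NOTCH2 (-2.09) was below 8 of its 9 neighbours, whose median was -0.50. The exception was PHGDH, the first enzyme of serine synthesis, which lies 167 kb away and had 2126 and 394 reads, 5.40-fold lower (4.84 to 6.02). The noncoding gene AL359915.2 was also at least 2-fold lower, at -1.07, and the other neighbours lay between NBPF26 at -0.75 and WARS2 at 0.39. NOTCH1 and NRARP lie 755 kb apart on chromosome 9 and share 42 measured neighbours. The neighbours had medians of 0.36 (51 genes around NOTCH1) and 0.38 (49 around NRARP). With the trend in GC content and length removed these medians turned to -0.14 and -0.12. As deposited, NRARP (-0.66) was below all 49, and NOTCH1 (-0.09) was below 37 of 51. Each of this pair is counted among the neighbours of the other. NRARP rests on 35 and 21 reads. Its counting interval (log2 -1.59 to 0.08) reaches into the range of its neighbours, so its place below all of them is not settled. RBPJ (-0.40) was below all 6 of its neighbours (median 0.07), and HEYL below 20 of 26.

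**Figure D4:**
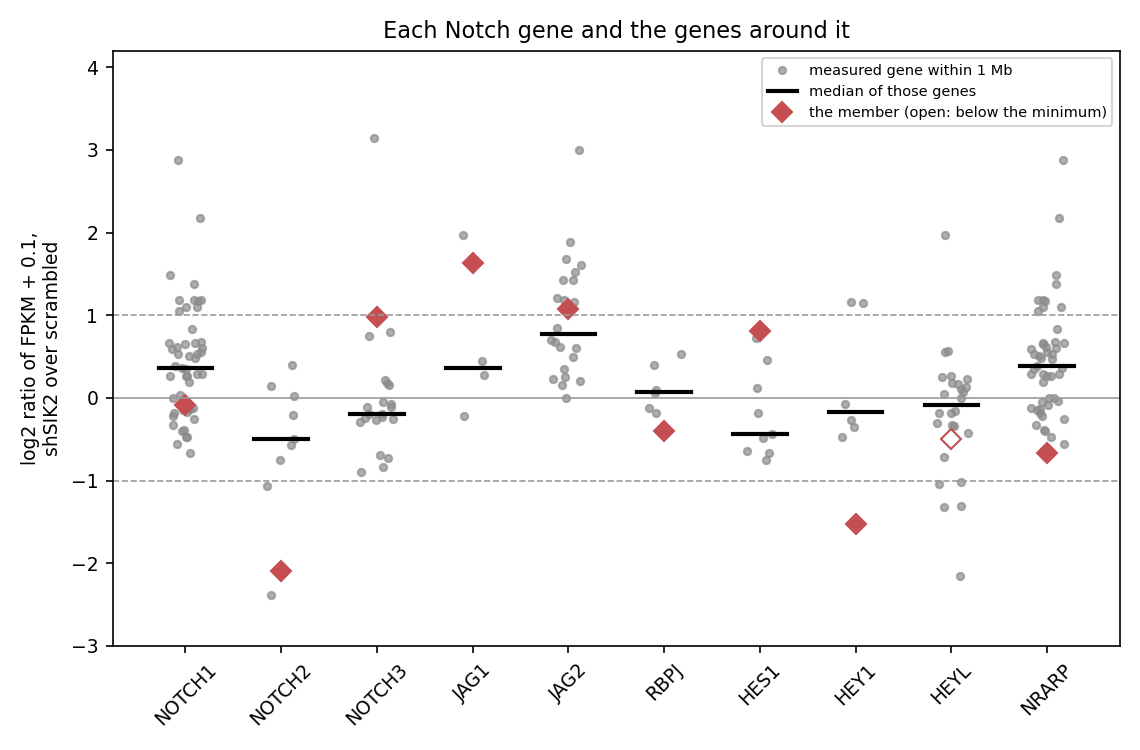
Log2 ratio of FPKM plus 0.1 (shSIK2 over scrambled) of each member (diamond, open where below the minimum) and of each measured gene within 1 Mb (grey), with the median of those genes as a bar. JAG2 lies among its 22 neighbours, whereas NRARP, RBPJ and HEY1 lie below all of theirs and HES1 above all of its 9. Counting error is not drawn, and NRARP rests on 35 and 21 reads.

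Lists of other pathway genes, sorted by role, held 83 further genes, of which 63 were measured. Of these 3 were at least 2-fold higher (DLK2, CDKN1A and ACTA2), 4 at least 2-fold lower (DNER, THBS2, NEDD4 and AAK1) and 56 lay between, with a median of -0.06. The background was 11.0% of all measured genes higher and 8.28% lower. At equal totals 4 of the 63 were higher and 4 lower, against 13.4% and 6.04%, and with the trend removed 3 were higher and 6 lower, against 9.17% and 8.52%.

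Genes that modify and cut the receptors had no member past 2-fold, beside 11.0% of all measured genes higher and 8.28% lower. The 4 measured glycosylation genes lay between -0.21 and 0.00. They include POFUT1, which adds the first fucose to Notch, with 3817 and 3672 reads, and RFNG, a Fringe enzyme, with 494 and 427. POFUT1, POGLUT1 and EOGT were below 0 as deposited and above 0 at equal totals. The Fringe genes LFNG and MFNG were below the minimum, with 3 and 1 reads in each library. The 9 cleavage genes were all measured, with a median of -0.13. FURIN, which makes the first cut in the secretory pathway, stood at 7.06 and 11.4 FPKM, 1.61-fold higher (1.45 to 1.79). The gamma-secretase subunits NCSTN and APH1A were 1.41-fold (1.33 to 1.49) and 1.37-fold (1.30 to 1.45) lower.

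Endocytosis and turnover genes had 13 measured members, 2 of them at least 2-fold lower (8.28% of all measured genes were) and 0 higher (11.0%), with a median of -0.23. With 13 genes the lower count is too small to be set against that background. NEDD4, a ubiquitin ligase that acts on membrane proteins, stood at 12.1 FPKM with the scrambled hairpin and 3.85 with the SIK2 hairpin, 3.14-fold lower (2.86 to 3.45). AAK1, a kinase of clathrin adaptors, stood at 6.55 and 2.70 FPKM, 2.43-fold lower (2.26 to 2.60). MIB1, the ligase that ligand-bearing cells need for signalling, was 1.34-fold lower (1.24 to 1.44), and DTX3L 1.39-fold lower (1.29 to 1.49).

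The measured nuclear partners were all short of 2-fold as deposited. Among all measured genes 11.0% were at least 2-fold higher and 8.28% at least 2-fold lower. The 7 measured co-activators had a median of -0.63, with 5 below 0. Of all measured genes 56.4% were at or below 0, with a median of -0.11. EP300 and CREBBP, the acetyltransferases of the Notch complex, were 1.74-fold (1.62 to 1.85) and 1.70-fold (1.59 to 1.82) lower, and MAML1 was 1.57-fold lower (1.44 to 1.72). MAML2, another Mastermind protein, went the other way at 4.50 and 7.62 FPKM, 1.69-fold higher (1.52 to 1.89), and MAML3 had no reads. The 11 co-repressors had a median of 0.01. NCOR1 was 1.996-fold lower (1.90 to 2.10) at 5023 and 2516 reads, just short of 2-fold, HDAC1 1.39-fold higher (1.32 to 1.46), SPEN 1.31-fold lower (1.24 to 1.39) and CTBP1 1.28-fold higher (1.18 to 1.38).

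Other HES and HEY factors had 3 measured members, none past 2-fold as deposited, beside 11.0% of all measured genes higher and 8.28% lower. HES4 had the highest level of that family, at 26.0 FPKM with the scrambled hairpin and 20.5 with the SIK2 hairpin, or 52.0% and 54.4% of the summed HES and HEY level. It was 1.27-fold lower (1.11 to 1.45), HES6 1.58-fold lower (1.33 to 1.89) and HES7 1.47-fold higher (1.05 to 2.06). HES4 and HES6 have GC contents of 74.2% and 69.6%, and stood at -1.05 and -1.30 once the GC and length trend was subtracted. HES7, DLL3, EGFL7 and CTBP1 were above 0 as deposited and below 0 on that scale, at -0.10, -0.20, -0.34 and -0.05.

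Non-canonical ligands held the widest differences. THBS2, a matrix thrombospondin, had 312 and 28 reads, 11.1-fold lower (7.56 to 17.0). DNER, a membrane protein with EGF repeats, had 786 and 94 reads, 8.36-fold lower (6.74 to 10.5). DLK2 had 35 and 99 reads, 2.83-fold higher (1.91 to 4.29). Its log2 ratio was 1.40, but 0.91 with the trend removed and 0.90 with a pseudocount of 1, both short of 2-fold. EGFL7, which lies 113 kb from NOTCH1, was 1.23-fold higher (1.06 to 1.42). Among other reported Notch targets 9 were measured and their median was 0.69. Of these, 2 passed 2-fold upwards and 0 downwards, beside 11.0% and 8.28% of all measured genes. SNAI2 made it 3 at equal totals and 3 with the trend removed. The cell cycle inhibitor CDKN1A stood at 11.1 and 73.9 FPKM, 6.66-fold higher (6.10 to 7.28), and the smooth muscle actin ACTA2 at 10.5 and 21.5 FPKM, 2.06-fold higher (1.86 to 2.29). SNAI2, an EMT factor, was 2.02-fold higher in reads (1.73 to 2.35), with a log2 ratio of 0.99, and IL7R 1.90-fold lower (1.52 to 2.38). Each of these genes also has regulators outside the Notch pathway.

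**Figure D5:**
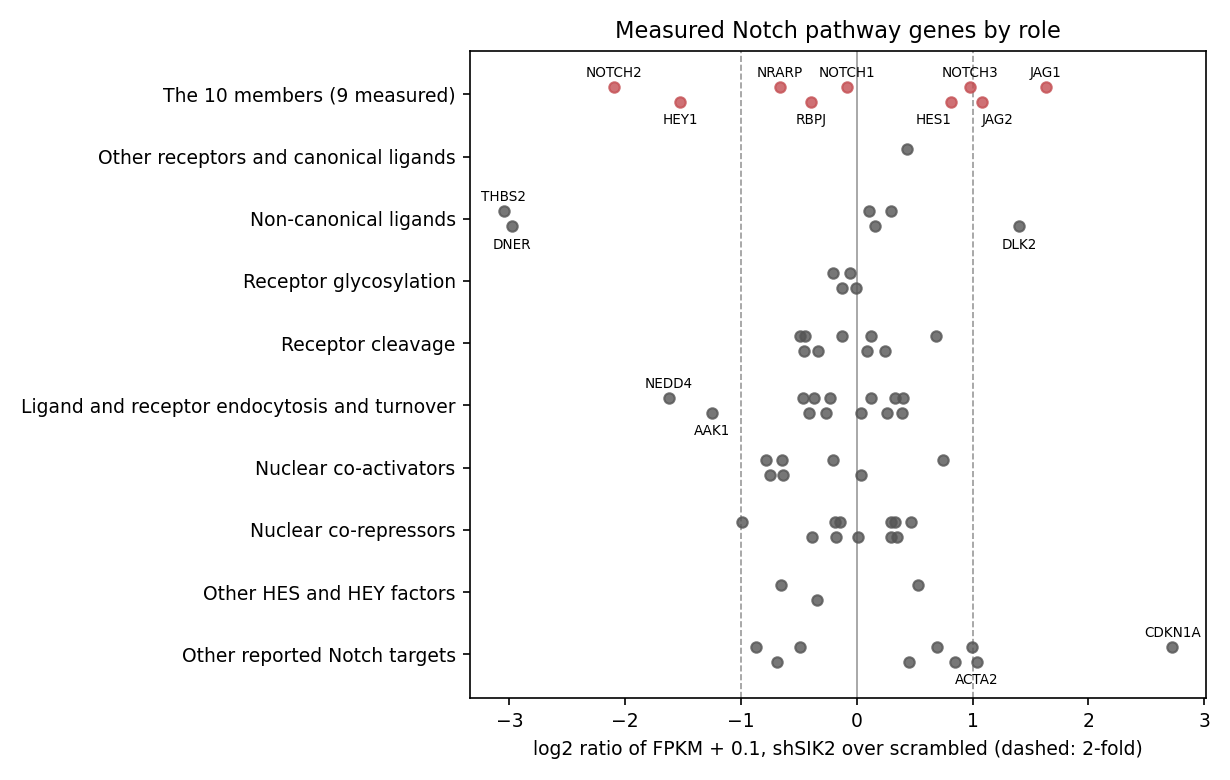
Log2 ratio of FPKM plus 0.1 (shSIK2 over scrambled) of each measured gene by role, the members in red, with dashed lines at 2-fold. Of the 9 measured members 4 lie past a line, and of the 63 other genes 7 do, which are named. Among all measured genes 11.0% were at least 2-fold higher and 8.28% at least 2-fold lower.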

How the data were processed

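Total RNA was taken with Trizol, per the labels' protocols. The submitters' processing notes name HISAT2 2.0.5 and the build hg18. The counter, annotation, FPKM formula and strandedness were not stated in the labels used here. The authors deposited FPKM, 1 table per library. All identifiers matched GENCODE release 29 on GRCh38, and FPKM times exon length gave whole multiples of 1 step (58.3, both tables) for 100% of values above 0 (tolerance 0.001). These were taken as reads. The aligned build is not settled, and coordinates are those of GENCODE.

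Groups came from sample titles. The members and lists were chosen with earlier results of these data known. Named genes are all members, SIK2, copies of NOTCH2 and up to 4 measured genes per list with the largest absolute log2 ratio. A gene that this rule names is not reported here. Others named (neighbours, genes at 0 or below the minimum, and the genes sharing sequence with NOTCH2) were chosen after their values were seen. Fold intervals are Clopper-Pearson, conditional on the sum, and level intervals exact Poisson. Both cover counting error only, since PCR copies cannot be told from separate molecules. Trimmed mean (TMM) scaling was computed in Python. Trend removal used 20 bins each of GC content and length. Read recovery, intervals, the 2-fold rule and removal of a GC trend were tested on data simulated with counting error only. Removal of a length trend was not tested. A planned search of HES and HEY proteins was not run. Scripts ran in Python 3.11.15 with scipy 1.17.1, pandas 2.3.3, numpy 2.4.6 and, for plots, matplotlib 3.10.9.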

Additional observations from a re-analysis of the deposited data

How the results depend on the processing

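Alternatives were a pseudocount of 0.01 or 1, a minimum of 0.5 FPKM or none, equal totals, TMM factors, removal of the GC and length trend, and TPM for the order of levels. The 2 members counted as higher became 1 with a pseudocount of 1 and 1 with the trend removed, and the 3 higher genes of the wider lists became 1 with a pseudocount of 1. The other counts stayed within 1.5 times of the reported value under each alternative. TPM multiplies all genes of a library by the same factor, so it could not change the order of levels. That order was not redone with the trend removed. With a pseudocount of 1, log2 ratios were -1.77 for NOTCH2, 1.35 for JAG1 and 0.77 for JAG2. At equal totals they were -1.96 for NOTCH2, 1.12 for NOTCH3 and -0.26 for RBPJ. With the trend removed they were -0.51 for NOTCH1, -1.95 for NOTCH2, 0.51 for NOTCH3, 0.51 for JAG2 and -0.22 for RBPJ. These values lay outside the counting interval of the deposited fold, by the arithmetic of each setting. The deposited values divide both libraries by the same total, and which setting is right was not tested. Over the scaling, pseudocount and trend settings 9 of 10 members kept their sign, NOTCH1 being the exception. Of the 32 named genes of the wider lists 25 did so. A pseudocount cannot turn a sign, so only the scaling and trend settings bear on this. HEYL and NRARP are among the 9 members, but their counting intervals span 1, so their direction is not settled. No paired analysis was possible because each group holds 1 library, and for the same reason no library could be left out. Depth limits HEYL and NRARP most.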

Other observations

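Some pathway genes outside the measured set differed in reads. PDGFRB, a growth factor receptor of mural cells and a reported Notch target, was below the minimum with 13 reads with the scrambled hairpin and 103 with the SIK2 hairpin, 7.92-fold higher (4.43 to 15.4). HES2 had 0 reads and 9 reads, with an exact 95% lower limit of 1.97 on the fold. Of the wider lists, 8 genes had no reads in either library, among them DLL4, HES5, MAML3 and DTX1. These genes were singled out after their values were seen.

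Windows of 0.5 Mb and 2 Mb around each member were added after the data were seen. For JAG2 it was 0.84 within 0.5 Mb (21 genes) and 0.61 within 2 Mb (36 genes), against 1.08 for JAG2 itself. For NOTCH2 the medians were -0.20 (5 genes) and -0.53 (14 genes), and PHGDH remained the 1 gene below it in each window. For HES1 the median was -0.43 (5 genes) and -0.04 (23 genes), and within 2 Mb 3 genes were above it. For JAG1 it was 0.28 (3 genes) and 0.20 (7 genes), against 0.36 within 1 Mb. Within 2 Mb, 6 of 51 genes were above NOTCH3, and 1 of 11 was below HEY1.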
